A study of Mus musculus with 4 samples.

Results

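Interferon-stimulated genes are genes whose transcription is switched on when a cell senses an interferon. They were examined here as a list of 40 named mouse genes, found by their symbol among the 32285 features of the count tables. Of the 40, 38 were among the features, and Mx1 and Mx2 were not among the features used here. Spatial transcriptomes came from tibial muscle of C57BL/6 mice aged 6 to 8 weeks with the genotype Nse-Bmp4. In these mice the rat neuron-specific enolase promoter drives mouse Bmp4, the gene of a bone morphogenetic protein, and injured muscle ossifies. The groups were uninjured muscle (day 0) and muscle at days 1, 3 and 7 after injury with cardiotoxin, a snake toxin that destroys muscle fibres. All 4 groups carried the transgene, the day 0 muscle included, so no group shows muscle without it. The labels state that 3 tibial muscles were mixed for each group, and each group is represented by 1 fresh frozen section. With 1 section per day there was no spread between animals, and no test between days could be made.

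A section was read on an array of spots, each of which covers several cells and counts transcripts by unique molecular identifiers (UMIs). The sections held 2107, 2667, 3029 and 3032 spots in the order of days, with totals of 43871586, 16777832, 56113066 and 41832640 UMIs. Levels are given as CPM, the UMIs of a gene scaled to a total of 1e+06 UMIs in the section. Their 95% intervals cover counting error only. Pairs of sections shared between 1539 and 2311 spot barcodes of 4078 in all because the arrays share a design, and spots were kept apart by section. RNA of adult myofibres, the contractile fibres of mature muscle, made up 24.9%, 13.5%, 8.24% and 14.7% of the UMIs of these sections. The RNA of a spot or section is a mixture, so fewer cells of a type and less RNA per cell cannot be told apart.

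Interferons are secreted proteins that cells release on sensing foreign or misplaced nucleic acid, or, for interferon-gamma, that lymphocytes release. Type I interferons bind IFNAR1 and IFNAR2. The kinases JAK1 and TYK2 then lead to a complex holding STAT2 and IRF9 that binds a DNA element called the interferon-stimulated response element. Interferon-gamma acts through its own receptor and leads to binding at the gamma-activated site. The induced genes include sensors of viral RNA and DNA, enzymes that block viral replication, guanylate-binding GTPases and the ubiquitin-like protein ISG15. Macrophages and monocytes are well known to express many of them in injured tissue.

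Promoter sequence is shown because it is the feature that the members share by their known mode of induction and that the expression values do not use. RefSeq windows of GRCm38.p6 running from 250 bases before to 50 bases after a start site were at hand for 31 of the 40 members. The 9 members without a window in the table were Oas2, Mx1, Mx2, Usp18, Dhx58, Ifi27l2a, Zbp1, Rtp4 and Parp14. The core of the interferon-stimulated response element was searched as GAAA, any 2 bases, GAAA, on both strands. The gamma-activated site was searched as TTC, any 3 bases, GAA, which reads the same on both strands. The first motif stood in the windows of 19 of 31 members (61.3%), against 1079 of the 27025 genes of the whole promoter table (3.99%). The gamma-activated site stood in 7 of 31 members (22.6%), against 9.55% of all genes. Among the GTPases, 5 of 6 held the response element core. The following stretches are the 150 bases just before the start site of 8 members that the values below return to, 5′ to 3′ on the strand of the gene, with every match of the response element core in capitals. A match on the opposite strand reads TTTC, any 2 bases, TTTC.
Isg15: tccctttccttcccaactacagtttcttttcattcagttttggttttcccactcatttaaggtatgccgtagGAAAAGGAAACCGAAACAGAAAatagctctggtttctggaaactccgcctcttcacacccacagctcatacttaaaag
Ifit1: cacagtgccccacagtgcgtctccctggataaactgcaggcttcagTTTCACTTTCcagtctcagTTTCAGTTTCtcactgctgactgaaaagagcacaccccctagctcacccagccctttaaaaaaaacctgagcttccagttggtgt
Ifit3: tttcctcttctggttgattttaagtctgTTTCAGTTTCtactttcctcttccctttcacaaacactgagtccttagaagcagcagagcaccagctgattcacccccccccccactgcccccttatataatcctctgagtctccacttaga
Oas1a: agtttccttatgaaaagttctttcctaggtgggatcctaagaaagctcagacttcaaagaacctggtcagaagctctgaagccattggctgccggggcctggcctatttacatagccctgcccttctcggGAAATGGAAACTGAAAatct
Bst2: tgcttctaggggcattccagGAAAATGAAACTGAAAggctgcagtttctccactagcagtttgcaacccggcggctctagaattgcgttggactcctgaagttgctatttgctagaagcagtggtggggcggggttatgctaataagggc
Gbp2: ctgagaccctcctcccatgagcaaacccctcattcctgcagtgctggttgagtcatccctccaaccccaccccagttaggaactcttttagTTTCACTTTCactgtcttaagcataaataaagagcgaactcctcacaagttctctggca
Irgm1: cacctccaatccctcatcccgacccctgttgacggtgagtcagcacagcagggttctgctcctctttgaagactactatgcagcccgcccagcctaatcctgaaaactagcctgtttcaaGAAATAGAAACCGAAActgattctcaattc
Slfn4: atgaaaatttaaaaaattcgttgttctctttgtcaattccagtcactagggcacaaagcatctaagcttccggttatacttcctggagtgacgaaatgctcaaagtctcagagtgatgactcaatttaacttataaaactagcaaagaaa
In GRCm38.p6 these stretches lie at Isg15 chr4:156200819-156200968 (minus strand), Ifit1 chr19:34640739-34640888 (plus strand), Ifit3 chr19:34583379-34583528 (plus strand), Oas1a chr5:120907526-120907675 (minus strand), Bst2 chr8:71537473-71537622 (minus strand), Gbp2 chr3:142620513-142620662 (plus strand), Irgm1 chr11:48871421-48871570 (minus strand) and Slfn4 chr11:83175036-83175185 (plus strand). The Ifit3 stretch lies wholly inside the annotated gene, which begins at chr19:34583119, so the start site used there is an internal one. The stretches of Oas1a and Slfn4 also overlap the outer ends of their annotated genes by a few bases. The promoter of Isg15 held 3 overlapping matches, and those of Oas1a, Bst2 and Irgm1 each held 2 overlapping ones. Ifit1 had 2 separate matches, and Ifit3 and Gbp2 had 1 match each in the stretch, with a further Ifit3 match across the upstream edge of the stretch that is not in capitals. The Slfn4 stretch held none, which says only that these letters are not in this window. In Bst2 a gamma-activated site overlapped the response element core. A match is a description of sequence, and no binding was measured.

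Several members are neighbours in the genome. With gaps of at most 100000 bases, they formed 7 blocks, among them Ifit2, Ifit3 and Ifit1 on chromosome 19, Gbp7, Gbp3 and Gbp2 on chromosome 3, and Rsad2 with Cmpk2 on chromosome 12. Ifit3 has the near-identical copy Ifit3b, Oas1a has Oas1g, and Slfn8 has Slfn9, so reads of these genes could have been split between copies. In the RefSeq annotation Ifi27l2a overlaps Ifi27, Ifit1 overlaps Ifit1bl1, Slfn5 overlaps Slfn5os, Stat2 overlaps Apof, Rtp4 overlaps Masp1 and Ifi47 overlaps Gm12188. The values of these genes are uncertain to that extent.

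The members were together lowest in uninjured muscle and highest at day 3. Their summed level over days 0, 1, 3 and 7 was 307, 986, 1444 and 693 CPM. Relative to day 0 this was 3.21-fold (3.14 to 3.28), 4.70-fold (4.62 to 4.79) and 2.26-fold (2.21 to 2.30). A single member, Ifi27l2a, gave 33326 of the 81038 member UMIs at day 3. Without it the folds were 2.44, 3.42 and 2.25. The number of members at least 2-fold higher than uninjured muscle was 22 of 38 for day 1, where 17.8% of all genes rated were. It was 30 of 38 for day 3, against 32.4%, and 29 of 38 for day 7, against 32.8%. With CPM no member was 2-fold lower at any of these days, whereas 10.7%, 8.66% and 2.18% of all genes were. The median member stood at a log2 ratio of 1.32, 1.74 and 1.26 to day 0 at days 1, 3 and 7, and the median of all genes at 0.19, 0.56 and 0.65. Factors that centre on the bulk of genes (edgeR TMM) moved every log2 ratio by -0.19, -0.55 and -0.61, and the count of higher members was then 21, 22 and 11 of 38. The share of all genes past 2-fold was not counted with these factors, so the shares above do not belong beside these counts. The shift is the same for the median member and the median gene, which leaves the distance between them unchanged. With TMM factors, DESeq2 factors and a total without mitochondrial, haemoglobin and myofibre RNA alike, 2 members (Ifi44 and Gbp7) were 2-fold lower at day 1.

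Most members had their highest level at day 3. That was so for 25 of 38, while 10 were highest at day 7, 2 at day 1 (Slfn4 and Oas3) and 1 at day 0 (Gbp7). For 18 of the 25 and for 6 of the 10 the counting interval lay apart from that of the next day in order. The day of the highest level was not counted over all genes. Of the members, 36 of 38 were higher at day 3 than at day 1, as were 11971 of 16746 genes rated. The median log2 ratio of day 3 to day 1 was 0.48 for members and 0.34 for all genes. TMM factors moved both by -0.36, so the lead of day 3 over day 1 was small for the median member. Between day 1 and day 3, 1 member was at least 2-fold higher (Ifi44, against 17.1% of all genes) and 1 was 2-fold lower (Slfn4, against 3.34%). From day 3 to day 7, 10 members were 2-fold lower, against 11.5% of all genes, and none was 2-fold higher, against 16.6%. The 10 were Slfn4, Slfn8, Oas1a, Oas3, Oasl1, Ifi27l2a, Zbp1, Irf7, Dhx58 and Trim30a.

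**Figure D1:**
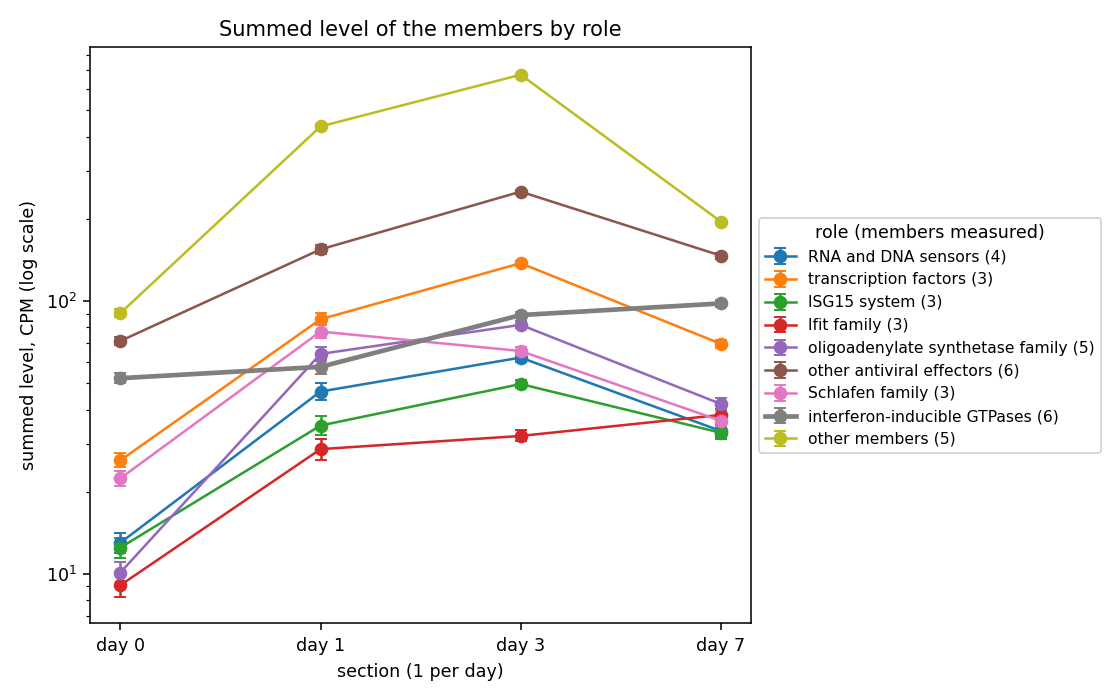
Summed level in CPM (log scale) of the members of each role against the section, with 95% counting intervals as bars. Most roles have their top at day 3, the Ifit family and the GTPases (thick grey line) have theirs at day 7, and the Schlafen family has its top at day 1.

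Values that follow run over days 0, 1, 3 and 7 unless said otherwise. The sensors open the list, since they detect the nucleic acids that start an interferon response. Their sum was 13.0, 46.6, 62.1 and 33.4 CPM at days 0, 1, 3 and 7. Zbp1, which binds left-handed DNA and RNA and can start cell death, was at 0.661, 21.3, 24.7 and 6.36 CPM, which made it 37.4-fold (25.9 to 56.0) higher at day 3 than at day 0. Dhx58, the regulatory RNA helicase LGP2, was at 1.76, 9.95, 13.2 and 5.47 CPM. The helicases that signal themselves stood closer to day 0. Ddx58, which encodes RIG-I, was at 4.70, 8.28, 11.4 and 11.4 CPM. Ifih1, which encodes MDA5, was at 5.90, 7.03, 12.8 and 10.1 CPM, and its day 1 ratio of 1.19 (0.95 to 1.49) was within counting error of day 0. Thus 2 of 4 sensors were 2-fold higher at day 1, 4 of 4 at day 3 and 3 of 4 at day 7. Of all genes 17.8%, 32.4% and 32.8% were. With TMM or DESeq2 factors Zbp1 and Dhx58 were the only sensors 2-fold higher at each day.

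Among the transcription factors, Irf7 had the largest ratio. Irf7, the factor that amplifies type I interferon production, was at 5.81, 43.8, 83.7 and 23.9 CPM, a 14.4-fold (12.7 to 16.4) ratio at day 3. Stat2 was at 7.77, 18.4, 25.7 and 16.6 CPM. Irf9, the DNA-binding partner of STAT2, was at 12.5, 23.6, 28.3 and 29.2 CPM and was no lower at day 7 than at day 3. With TMM or DESeq2 factors Irf9 was not 2-fold higher at any day and Stat2 was not at day 7.

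The ISG15 system attaches the small protein ISG15 to other proteins and removes it. Isg15 itself, whose promoter held 3 overlapping matches, was at 7.75, 24.2, 35.7 and 22.7 CPM. Usp18, which removes ISG15 and dampens receptor signalling, was at 2.87, 8.11, 9.16 and 6.38 CPM. Herc6, the mouse ligase of the system, was at 1.87, 2.68, 4.78 and 3.82 CPM. All 3 were over 2-fold higher at days 3 and 7, beside 32.4% and 32.8% of all genes. At day 1, 2 of 3 were, beside 17.8%, and the ratio of Herc6 was 1.44 (0.975 to 2.09). With TMM or DESeq2 factors Herc6 was below 2-fold at day 3 too, and none of the 3 was 2-fold higher at day 7.

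The Ifit proteins bind viral RNA and hold back its translation. Unlike most members, 2 of their 3 genes were highest at day 7, and of these only Ifit1 had a counting interval apart from that of day 3. The family sum was 32.0 CPM at day 3 and 38.3 at day 7, or 30.5 and 35.6 without the leading spot of each section. Ifit1 was at 3.35, 8.76, 8.84 and 15.0 CPM, and its day 7 level was 1.70-fold (1.51 to 1.92) that of day 3. Ifit3 was at 4.15, 15.9, 17.1 and 19.5 CPM, and with TMM or DESeq2 factors it was likewise not higher at day 7 than at day 1. Ifit2, their neighbour on chromosome 19, was at 1.60, 4.05, 6.06 and 3.71 CPM and so had its top at day 3. The copy Ifit3b, which is no member, was at 1.39, 4.47, 4.33 and 7.86 CPM, also highest at day 7.

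The oligoadenylate synthetases make a messenger that activates the RNA-cutting enzyme RNase L. Their sum was 10.1, 64.0, 81.8 and 42.0 CPM, the largest ratio to day 0 of the 9 roles measured at days 1 and 3 (6.33-fold and 8.08-fold) and the next after the Ifit family at day 7 (4.15-fold and 4.21-fold). All 5 members were at least 2-fold higher at days 1, 3 and 7, beside 17.8%, 32.4% and 32.8% of all genes. With TMM or DESeq2 factors this held for all but Oas1a at day 7. Oas3 was at 0.205, 9.60, 8.23 and 2.49 CPM. Its ratio of 46.8 at day 1 rests on 9 UMIs at day 0 and has an interval of 24.0 to 104. Oas1a was at 1.00, 8.58, 13.6 and 2.87 CPM. Oasl1, a family member without synthetase activity, was at 1.16, 8.70, 12.1 and 4.90 CPM. All 3 were thus highest at day 1 or 3 and lower again at day 7. Oas2 was at 2.76, 13.4, 18.0 and 9.85 CPM and Oasl2 at 4.99, 23.7, 29.9 and 21.9 CPM.

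Other antiviral effectors stood closer to day 0, their sum being 2.17-fold, 3.52-fold and 2.05-fold higher at days 1, 3 and 7, and with TMM or DESeq2 factors none of the 6 was 2-fold higher at day 7. Bst2, the membrane tether called tetherin, was at 47.3, 108, 187 and 97.2 CPM. Trim30a was at 5.81, 18.5, 29.3 and 13.3 CPM, and the exonuclease gene Isg20 was at 1.94, 5.90, 7.02 and 4.14 CPM. Eif2ak2, which encodes the RNA-activated kinase PKR, was at 2.28, 4.29, 7.04 and 4.95 CPM. The neighbours Rsad2 and Cmpk2 parted. Rsad2, which encodes viperin, was at 7.29, 13.1, 15.6 and 17.9 CPM, 2.46-fold (2.15 to 2.81) day 0 at day 7. Cmpk2, a mitochondrial nucleotide kinase, was at 6.79, 5.07, 6.04 and 9.11 CPM. Its day 1 ratio was 0.746 (0.579 to 0.952) and its day 7 ratio 1.34 (1.15 to 1.57), and the latter turned to below 1 with TMM or DESeq2 factors.

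The Schlafen family showed the widest spread among its members. Slfn4, a gene of myeloid cells, was at 0.137, 45.9, 20.5 and 0.741 CPM, from 6 UMIs at day 0 to 770 at day 1. Its ratios to day 0 were 336 (153 to 917), 150 (68.6 to 409) and 5.42 (2.23 to 15.9). Slfn8 was at 0.433, 8.82, 10.6 and 3.51 CPM. Slfn5 was at 21.8, 22.6, 34.5 and 32.2 CPM and never 2-fold higher, and at days 1 and 7 its small excess turned to a deficit with TMM or DESeq2 factors. The day 1 top of Slfn4 was in the section with the most neutrophil RNA. The neutrophil list (S100a8, S100a9, Cxcr2, Retnlg, Csf3r and Ly6g) summed to 1.46, 158, 53.1 and 7.77 CPM, with Ly6g at 1 UMI in all. The classical monocyte list (Ly6c2, Ccr2, Chil3, Plac8) summed to 5.38, 269, 286 and 46.7 CPM. All 4 of its genes were over 2-fold higher at days 1, 3 and 7, beside 17.8%, 32.4% and 32.8% of all genes. The part of neutrophils and monocytes in the Slfn4 values was not tested.

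The interferon-inducible GTPases, which disrupt the vacuoles of intracellular microbes and respond strongly to interferon-gamma, departed from the other roles. Their sum was 52.2, 57.4, 88.8 and 98.0 CPM, so that 1 of 6 was at least 2-fold higher at day 1 and day 3 and 3 of 6 were at day 7, beside 17.8%, 32.4% and 32.8% of all genes. The day 1 count is near the share of all genes, and none of the 3 calls at day 7 (Gbp2, Gbp3 and Ifi47) was kept with TMM or DESeq2 factors. At day 1 the summed log2 ratio of 0.14 turned to -0.05 with TMM or DESeq2 factors. Ifi47 was the GTPase that resembled the other roles, at 4.40, 10.8, 17.0 and 11.1 CPM. Gbp2 was at 9.76, 11.5, 12.9 and 25.5 CPM and Gbp3 at 5.31, 4.71, 7.86 and 14.8 CPM. Both were at most 1.48-fold over day 0 up to day 3, and stood 2.61-fold (2.33 to 2.93) and 2.78-fold (2.39 to 3.25) over it at day 7. Gbp7, in the same block on chromosome 3, was at 12.3, 6.79, 11.8 and 11.5 CPM, lower than day 0 at day 1 by a ratio of 0.554 (0.449 to 0.679). Igtp was at 8.82, 9.89, 17.3 and 17.5 CPM and Irgm1 at 11.6, 13.7, 21.9 and 17.5 CPM. With TMM factors Igtp at day 1, Gbp2 at day 3 and Irgm1 at day 7 were below day 0.

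The remaining members have less settled roles. Ifi27l2a was at 58.6, 379, 594 and 134 CPM, and its 10.1-fold (9.74 to 10.6) ratio at day 3 was followed by 2.29-fold at day 7. Rtp4 was at 8.78, 22.3, 29.7 and 22.5 CPM, and Xaf1 was at 8.98, 16.6, 19.7 and 14.9 CPM. Parp14, an ADP-ribosyltransferase, was at 10.8, 16.7, 27.3 and 18.4 CPM. Ifi44 was at 3.21, 1.73, 4.26 and 5.64 CPM. Its day 1 ratio was 0.538 (0.348 to 0.806) and its day 3 ratio 1.33 (1.07 to 1.64), though the day 3 direction turned with TMM or DESeq2 factors.

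**Figure D2:**
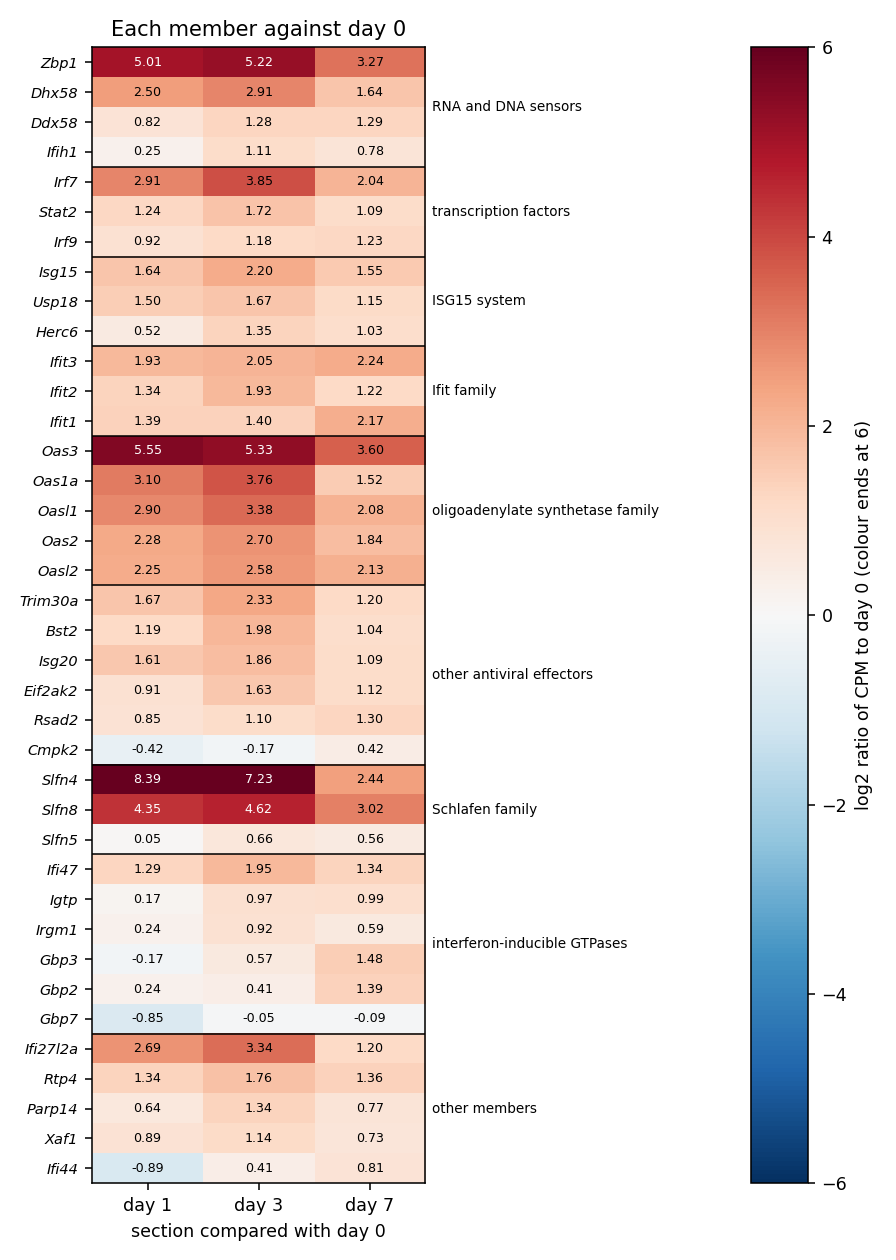
Colour and number show how far, in log2 units of CPM, days 1, 3 and 7 stood from day 0 for each of the 38 members (rows, grouped by role), with red above and blue below day 0 and the colour scale ending at 6. Slfn4, Zbp1, Oas3 and Slfn8 form the darkest rows, and the rows of Cmpk2, Gbp7 and Ifi44 hold the blue cells of more than a slight shade.

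Monocyte and macrophage RNA was, as the member sum was, lowest at day 0 and highest at day 3. The list of 8 genes (Cd68, Adgre1, Csf1r, Lyz2, Cd14, C1qa, C1qb, Mrc1) summed to 357, 1390, 6986 and 1786 CPM. Of these genes 7 of 8 were over 2-fold higher than day 0 at day 1 and 8 of 8 at days 3 and 7. The shares of all genes were 17.8%, 32.4% and 32.8%. The 19.6-fold ratio of the list at day 3 compares with 4.70-fold for the members. Plasmacytoid dendritic cell RNA (Siglech, Ccr9, Klk1, Pacsin1), from a cell type known for making type I interferon, summed to 0.410, 0.715, 1.75 and 0.932 CPM. The part of the leukocyte RNA in the members' levels between days was not tested.

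Interferons themselves were nearly absent from the counts. Ifnb1 had 0, 0, 21 and 0 UMIs at days 0, 1, 3 and 7, and Ifna2 had 0, 0, 13 and 0. With the day 0 counts entered at the floor of 3 UMIs, the ratios at day 3 were 5.47 and 3.39. These are not the lower ends of a counting interval. Ifna16 and Ifnk had 1 UMI each at day 3 and Ifnab had 1 at day 7, while the other 12 type I genes listed had none. Ifng, the gene of interferon-gamma, had 2, 0, 2 and 1 UMIs, and Ifnl2 and Ifnl3 had none. Of the 21 Ifnb1 UMIs, 14 lay in a single day 3 spot, which also held 12 of the 13 Ifna2 UMIs and the Ifna16 UMI. That spot had 43636 UMIs in all and 186 member UMIs, or 4263 CPM, above 95.9% of the spots of its section. Its macrophage list stood above that of 97.1% of spots. The spot was picked out after its values were seen.

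The receptor genes were higher by less than the members were at day 3, with a summed ratio of 2.46 against 4.70. Ifnar1 was at 11.0, 20.7, 33.1 and 19.6 CPM and Ifnar2 at 16.2, 28.6, 67.0 and 30.2 CPM. The interferon-gamma receptor genes Ifngr1 and Ifngr2 were at 59.5, 56.7, 118 and 90.0 CPM and at 43.4, 43.8, 61.1 and 49.8 CPM. Il10rb, a chain of the lambda interferon and interleukin-10 receptors, was at 10.7, 28.6, 66.9 and 32.7 CPM, and Ifnlr1 had between 1 and 5 UMIs in each section. Of the 5 to 6 receptors with a ratio, 1, 3 and 1 were at least 2-fold higher at days 1, 3 and 7. Of all genes, 17.8%, 32.4% and 32.8% were, so the day 1 count is near that share and the day 7 count below it. The kinase Jak1 was at 85.7, 89.3, 97.6 and 91.8 CPM. The myeloid factors Irf5 and Irf8 had the larger ratios, 6.88 and 9.83 at day 3, where Irf1 stood at 3.13 and Tyk2 at 2.96.

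Inhibitors of the pathway had a summed ratio of 6.67 at day 3. Socs3, which blocks JAK kinases downstream of several cytokines, was at 3.37, 29.7, 102 and 36.0 CPM, or 30.1-fold (25.6 to 35.7) at day 3. Ptpn6, a phosphatase of blood cells, was at 2.53, 40.8, 51.9 and 15.9 CPM, and Socs1 was at 2.17, 4.29, 10.0 and 11.3 CPM. The phosphatase gene Ptpn2 was at 13.3, 19.3, 39.3 and 18.8 CPM. Of the 5 inhibitors, 2, 4 and 3 were at least 2-fold higher at days 1, 3 and 7. Of 11 genes of upstream nucleic acid sensing, 8, 8 and 6 were. The shares of all genes were 17.8%, 32.4% and 32.8%. The DNA sensor Cgas was at 0.524, 2.38, 4.35 and 1.98 CPM, and Tmem173, which encodes its partner STING, was at 4.83, 10.1, 42.8 and 17.7 CPM. Tlr7, Myd88 and Aim2 had ratios of 11.8, 7.11 and 13.2 at day 3. The kinases Tbk1 and Ikbke stood at 2.75 and 5.22 there and the adaptor gene Ticam1 at 2.16, and Tlr9 had 0, 6, 7 and 5 UMIs. The counts above are with CPM, and with TMM or DESeq2 factors Tbk1 and Ticam1 were below 2-fold at day 3. Mavs, the adaptor of the RNA helicases, was at 31.8, 23.3, 26.9 and 30.8 CPM and so was not higher after injury.

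The genes known best for their response to interferon-gamma held some that were low at day 1 and others that were high from day 1 on. Of 10, 6, 6 and 8 were at least 2-fold higher at days 1, 3 and 7, beside 17.8%, 32.4% and 32.8% of all genes. At day 1, 2 were 2-fold lower, beside 10.7% of all genes. Cxcl10, a chemokine of T and NK cells, was at 0.274, 6.14, 16.9 and 10.1 CPM. Cxcl9, which acts on the same receptor, was at 3.83, 1.37, 5.56 and 12.3 CPM, 0.358-fold (0.221 to 0.555) day 0 at day 1 and 3.21-fold at day 7. Gbp4, Gbp5 and Gbp6 had ratios of 0.633, 0.603 and 0.421 at day 1 and 1.91, 3.03 and 1.37 at day 7. The immunoproteasome genes Psmb8 and Psmb9 and the peptide transporter gene Tap1 had ratios of 4.77, 4.41 and 5.05 at day 3. Ciita and Nlrc5, regulators of antigen presentation genes, were at 0.251, 1.91, 7.98 and 3.99 CPM and at 1.16, 3.93, 8.00 and 4.52 CPM. With TMM factors 5 of the 10 were at least 2-fold higher at day 7, where the share of all genes with these factors was not counted. The T cell list (Cd3e, Cd3d, Cd3g, Trac, Cd4, Cd8a) summed to 1.00, 0.477, 5.49 and 7.82 CPM, with Cd3e, Cd4 and Cd8a at 0 UMIs at day 1, and the NK cell list to 0.365, 0.775, 9.11 and 4.45 CPM. Their part in the day 7 level of Gbp2, Gbp3 and Cxcl9 was not tested. Of 11 further interferon-stimulated genes that are no members, 5, 8 and 5 were at least 2-fold higher, beside 17.8%, 32.4% and 32.8% of all genes. Among them Ms4a4c was at 0.410, 41.2, 56.9 and 5.16 CPM and Ifitm3 at 140, 369, 590 and 251 CPM. Ifi204, Epsti1, Phf11d, Parp9 and Lgals3bp had ratios of 9.04, 12.2, 2.51, 2.04 and 5.08 at day 3. With TMM or DESeq2 factors Phf11d and Parp9 were below 2-fold there.

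Within a section the members were unevenly spread over spots. In spots with at least 2000 UMIs the median member level was 273, 637, 855 and 502 CPM, here counted per spot. The level at the 99th percentile was 1234, 7921, 7726 and 3507, and the highest spot stood at 2540, 13087, 28783 and 15101. To compare spots of unequal depth, each was thinned at random to 2000 UMIs, and the 10% with the most member UMIs were taken. A ranking on few counts exaggerates its own share, so the member level was measured on the UMIs that were not drawn. Those spots then had 1.55, 5.56, 3.75 and 3.59 times the member level of the rest, in the order of days. In the day 0 section 44.0% of thinned spots held any member UMI, against 71.7% and 78.3% at days 1 and 3. Its ratio was 1.37 with thinning to 1000 UMIs and 1.72 with 4000. Day 0 ratios from such rankings, here and below, can therefore not be compared in size with those of injured days. Their median depth was 4054 UMIs against 7725 in the rest at day 1 and 19457 against 15687 at day 3.

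Each member was then measured in spots chosen without it. For each gene the 10% of spots richest in the other 37 members were compared with the remaining spots of the section. At day 1 all 38 members were at least 2-fold higher there, against 29.0% of genes outside the members. At days 3 and 7, 37 of 38 were, with Irf9 the exception at 1.90 and 1.92, against 10.4% and 7.89%. In uninjured muscle 1 of the 36 members with at least 10 UMIs (Zbp1) was, against 3.09%. Spots were ranked there on few member UMIs, so this count does not show that members vary apart in uninjured muscle. The median member stood at 1.40, 5.84, 3.91 and 3.59 at days 0, 1, 3 and 7, and the median gene outside the members at 1.11, 1.47, 1.29 and 1.22.

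**Figure D3:**
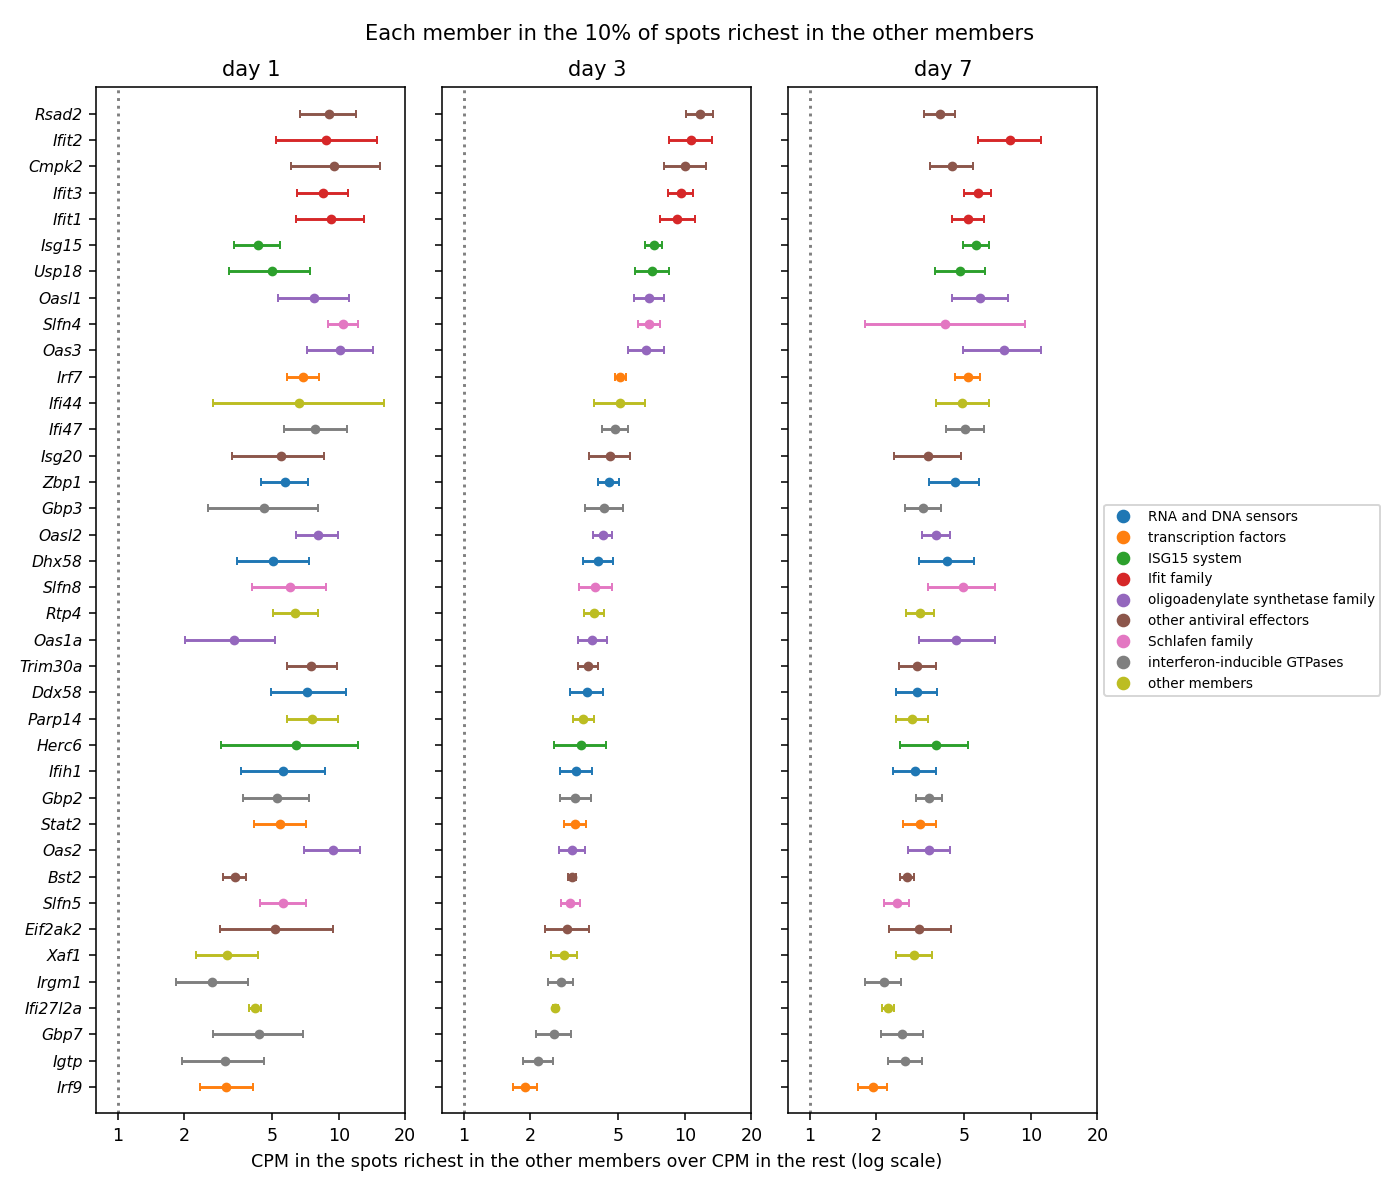
Each point is a member's CPM in the 10% of spots richest in the other members over its CPM in the rest of the section (log scale), with the 95% counting interval, coloured by role and ordered by the day 3 ratio. At day 3 Rsad2, Ifit2, Cmpk2, Ifit3 and Ifit1 stand highest, between 9.25 and 11.7, and Irf9 lowest at 1.90. The dotted line marks a ratio of 1.

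At day 3 Rsad2 stood at 11.7, Ifit2 at 10.6, Cmpk2 at 10.0, Ifit3 at 9.60 and Ifit1 at 9.25 in spots rich in the other members, followed by Isg15 at 7.25 and Usp18 at 7.13. Cmpk2 was thus no higher in the day 3 section as a whole than at day 0, and yet 10.0-fold higher in these spots than in the other spots of that section. Rsad2 and Cmpk2, neighbours whose section levels parted, were alike in this measure, at 9.04 and 9.50 at day 1 and at 3.87 and 4.39 at day 7. Ifi27l2a, by contrast, was at 2.59 at day 3 and 2.26 at day 7. At day 1 Slfn4 and Oas3 had the highest spot ratios, 10.5 and 10.1, and they also had the largest ratios to day 0. The GTPases, measured together in spots rich in the members that are not GTPases, had ratios of 1.42 (0.92 to 2.07), 4.62 (3.54 to 5.91), 3.28 (2.68 to 3.998) and 2.42 (1.94 to 2.96) over the 4 days. Of the pathway genes, Cxcl10 stood at 10.8, 10.7 and 11.3 at days 1, 3 and 7, while Socs3 stood at 1.15, 0.849 and 1.22.

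Spots rich in members had more RNA of several leukocyte lists and less of the myofibre list. The monocyte/macrophage list was 1.75, 3.19, 1.96 and 1.76 times as high in them at days 0, 1, 3 and 7, and the classical monocyte list 2.18, 4.95, 2.94 and 2.79 times. Some lists with few UMIs stood higher still at day 3, with 4.65 (3.87 to 5.59) for NK cells, 4.24 (2.73 to 6.52) for plasmacytoid dendritic cells and 3.39 (2.61 to 4.30) for T cells. At day 7 these were 3.59 (2.54 to 4.94), 3.04 (1.34 to 6.51) and 2.4995 (1.88 to 3.24), and at days 0 and 1 their intervals included 1. The B cell list, also of few UMIs, stood lower than these at 1.75 (1.24 to 2.475) at day 3 and 1.93 (1.18 to 3.15) at day 7. At day 1 it was at 4.25 (1.88 to 8.92), an interval that, unlike theirs, did not include 1. The neutrophil list was 1.83, 3.20, 1.83 and 1.95 times as high at days 0, 1, 3 and 7, with a day 0 interval of 0.81 to 3.55. The part of each of these cell types in the spot ratios was not tested. The adult myofibre list was 0.922, 0.511, 0.279 and 0.722 times as high. Across spots, Spearman's rho of the thinned member sum with the monocyte/macrophage list was 0.092, 0.408, 0.552 and 0.249 over 2090, 2154, 3020 and 2948 spots. Spots of a section share a library and are not replicates, so rho has no p-value. With the share of myofibre UMIs held constant it was 0.075, 0.305, 0.253 and 0.191.

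**Figure D4:**
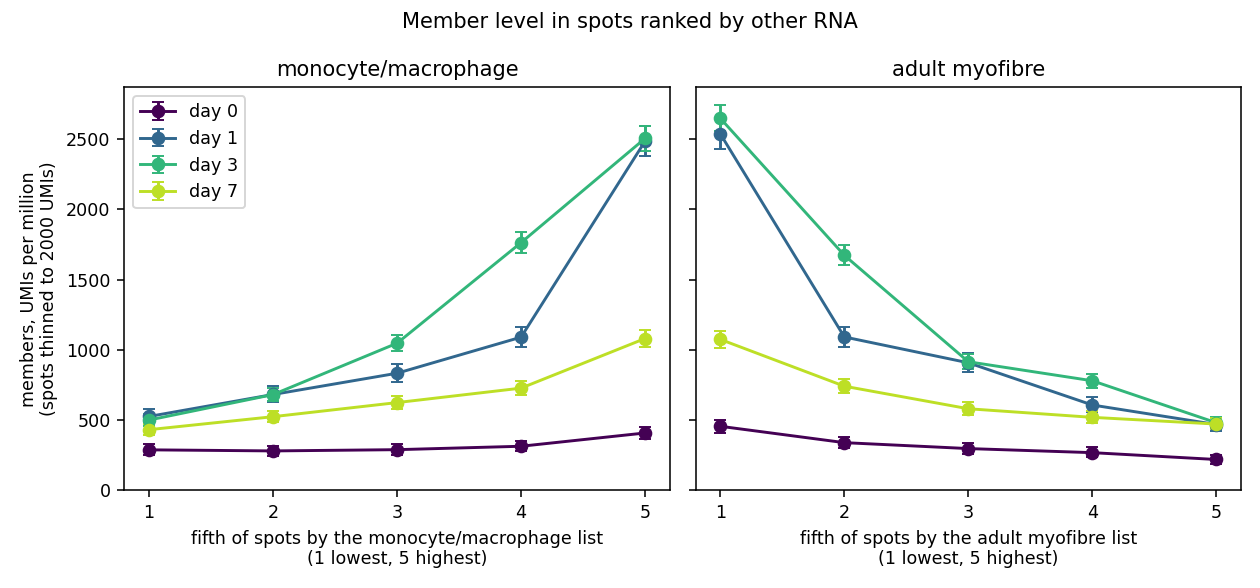
Member level in CPM in spots thinned to 2000 UMIs, in 5 equal groups of spots from the lowest to the highest share of monocyte/macrophage RNA (left) or adult myofibre RNA (right), with 95% counting intervals, for each day. At days 1 and 3 the level lies between 2486 and 2649 in the spots with the most macrophage RNA and in those with the least myofibre RNA, whereas the highest day 0 point is 456.

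Member level rose along macrophage RNA at days 1 and 3. At day 1 the 5 groups of spots, from the least to the most monocyte/macrophage RNA, stood at 526, 682, 834, 1091 and 2486 CPM of members, so that the step lay at the last group. At day 3 they had 500, 682, 1048, 1764 and 2506, a climb over all groups. The median thinned spot held 2 UMIs of this list at day 1 and 8 at day 3, and 79.8% and 97.7% of spots held any. Ties were ordered at random, so the lower groups were less well ordered at day 1. The shapes of the 2 days can therefore not be compared. At day 7 the ends were 432 and 1081 and at day 0 they were 288 and 408. Along adult myofibre RNA the order was opposite, with ends of 2538 and 468 for day 1, 2649 and 481 for day 3, and 1075 and 472 for day 7. Neutrophil RNA set apart its top group at day 1, with 1718 against 937 in the lowest. Spots with no UMI of a list were ordered at random, which leaves the lower groups of the neutrophil list with no order.

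In the 10% of spots richest in monocyte/macrophage RNA the roles differed most at day 1. There the Schlafen family was 5.97-fold, the oligoadenylate synthetases 5.42-fold, the Ifit family 4.58-fold and the GTPases 2.74-fold higher than in the rest. At day 3 the roles lay between 1.82-fold for the GTPases and 2.55-fold for the oligoadenylate synthetases. In spots rich in classical monocyte RNA at day 3, the Ifit family was at 4.10 and the ISG15 system at 3.43, against 2.14 for the GTPases. Spots rich in endothelial RNA had member ratios of 1.29, 1.27, 0.971 and 1.43, and those rich in mesenchymal stromal RNA 1.33, 1.16, 1.35 and 1.56.

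The genes outside the members that followed the member sum most closely over spots differed between sections. Among 3777 genes compared at day 1, the first were Actb (rho 0.475), Ctsb, Tmsb4x, Ftl1, Lgmn, B2m, Apoe, Ccl6, Ccl9 and Psap. Among 4397 genes at day 3 they were Ftl1 (0.507), Ctsb, Lyz2, Apoe, Tmsb4x, Actb, Psap, Eef1a1, S100a6 and B2m. Among 4504 genes at day 7 they were Apoe (0.229), B2m, H2-K1, C1qa, Col3a1, Ctsb, Actb, Col1a1, Igfbp4 and Crip1. Among 3235 genes at day 0 they were Sparc (0.137), Col1a1, Col1a2, Apoe, Cfd, Scd1, Fabp4, Col3a1, Trf and Gsn, several of which are genes of matrix and fat. Spots share depth and library, and counting noise lowers rho for sparse genes, so abundant genes are favoured in such an order.

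**Figure D5:**
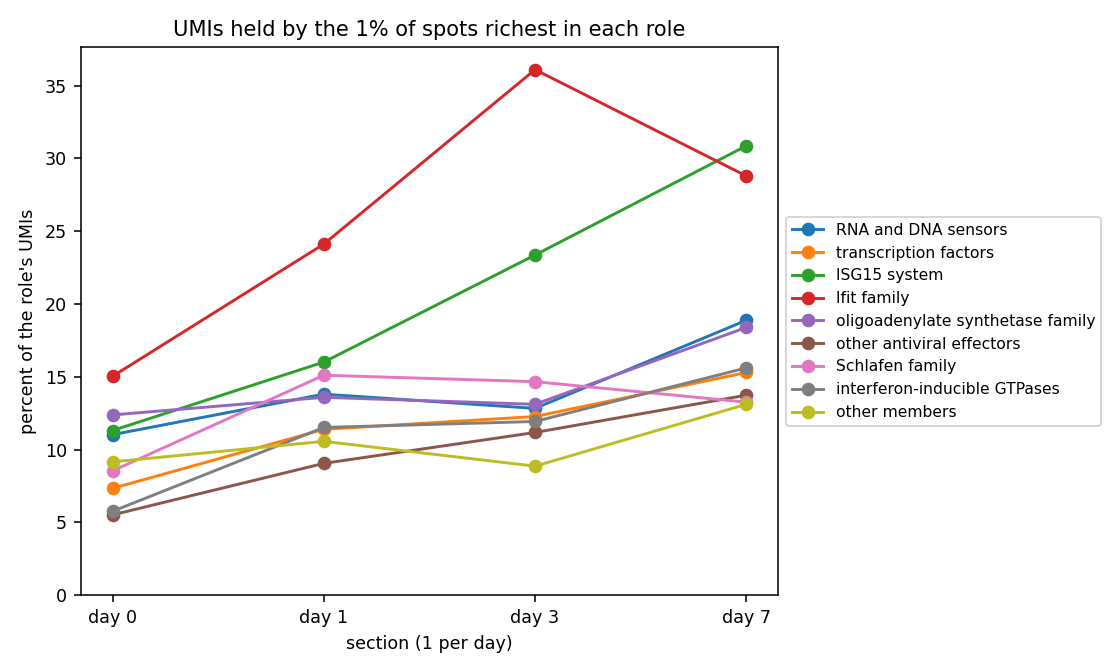
Percent of the UMIs of each role held by the 1% of spots with the most UMIs of that role, by section. The Ifit family reaches 36.1% at day 3 and the ISG15 system to 30.9% at day 7, while the other roles stay between 5.52% and 18.9%.

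A part of the RNA of several members lay in very few spots. The 1% of spots with the most Ifit UMIs held 15.0, 24.1, 36.1 and 28.8% of them at days 0, 1, 3 and 7, and the corresponding share of the ISG15 system was 11.3, 16.0, 23.4 and 30.9%. Rsad2 and Cmpk2 were as concentrated at day 3, with 44.5% and 41.9% of their UMIs in the 1% of spots richest in each, beside 39.1, 42.4 and 37.1% for Ifit1, Ifit2 and Ifit3, although the role they belong to is dominated by Bst2. The GTPases stood at 5.77, 11.5, 11.9 and 15.6%. Such shares are larger for sparse genes and for sections with deep spots, since spots were ranked by the same UMIs. At day 3 the ISG15 system with 2786 UMIs and the sensors with 3483 UMIs were near each other in number, and their shares were 23.4% and 12.8%.

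The extreme spots are described one by one. They were picked out as the spot with the most member UMIs in its section, after the values were seen. At day 7 that spot held 662 of the 28985 member UMIs (2.28%), and the next held 232. It had 43837 UMIs in all, so that its member level was 15101 CPM, 21.8 times the section. Cxcl10 had 102 UMIs in it (231 times the section), Isg15 had 78 (78.4 times) and Gbp2 had 52 (46.5 times), whereas Ifi27l2a was at 2.04 times and Slfn4 at 0 UMIs. Its classical monocyte list was at 5.37 times the section on 11 UMIs and its T cell list at 20.4 times on 7 UMIs. Its macrophage list was at 2.47 times and its adult myofibre list at 0.169 times. At day 3 the leading spot held 595 member UMIs and the next 532. In the former Ifit2 was at 81.4 times, Rsad2 at 76.6 times and Ifit3 at 69.7 times the section, Gbp2 at 8.03 times and Ifi27l2a at 3.89 times, with no UMI of Ifnb1 or Ifna2. Its classical monocyte list was at 4.82 times the section on 53 UMIs and its neutrophil list at 4.89 times on 10 UMIs. Its T cell list was at 18.9 times the section on 4 UMIs, its macrophage list at 1.31 times and its adult myofibre list at 0.0712 times. The latter had the highest member level of all spots, 28783 CPM on 18483 UMIs, with 1 UMI of Ifng. Without the leading spot of each section the member sums were 306, 978, 1435 and 678 CPM and the counts of members at least 2-fold higher were 22, 30 and 28.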

How the data were processed

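Spatial RNA was measured on 4 sections, 1 for each day, and the groups were taken from the sample titles. Per the file headers and labels, the authors deposited unnormalized UMI counts for each gene in each spot, from 10x Genomics programs. The file headers name Space Ranger 1.2.0 and the submitters' processing notes name Space Ranger with the mm10 build, while the labels and the methods name other versions. A different version could move counts of genes with near-identical copies. All 10835 spots were used. Spot positions and tissue images were not used here, and no doublet caller was run because spots are mixtures.

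Counts were summed per section and divided by all UMIs (CPM), with exact Poisson intervals and exact conditional intervals of ratios at 95%. Genes needed at least 10 UMIs over the 4 sections and over 3 UMIs in at least 1 of the sections compared, and a count under 3 was entered at 3. With 1 section per day no p-value was computed, and a gene was called by a 2-fold ratio, beside the share of all genes past it with CPM. Within sections, spots were thinned to 2000 UMIs in 20 draws, which left 2090, 2154, 3020 and 2948 spots. The members, roles, 8 pathway lists and 15 marker lists were chosen with earlier results of these data known. 1 pathway gene is not reported here. Named genes were all members, the pathway genes past 2-fold with all ligands and receptors, and the 10 genes most alike over spots in each section. Jak1, Mavs and Gbp4 were named beside that rule after their values were seen.

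Alternatives were edgeR TMM and DESeq2 factors (used for scaling only), a reduced total that omits 31 genes (mitochondrial, haemoglobin, myofibre), other UMI minimums, folds and thinning depths, and leaving out Ifi27l2a. The sums per role under other scalings, the share on UMIs not drawn, leaving out the leading spot and the rule for genes at or under 3 UMIs were chosen after seeing the data. Simulated data served to test the scripts. R 4.3.3 ran edgeR 4.0.16 with DESeq2 1.42.0, and Python 3.11.15 ran pandas 2.3.3, SciPy 1.17.1, matplotlib 3.10.9 and NumPy 2.4.6.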

Additional observations from a re-analysis of the deposited data

Results flagged for a closer look

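Cmpk2 and Ifi44 stood on opposite sides of day 0 at different days, with counting intervals apart from 1 on both sides. Cmpk2 was at a ratio of 0.746 to day 0 at day 1 and of 1.34 at day 7. Ifi44 was at 0.538 at day 1, at 1.33 at day 3 and at 1.76 at day 7. Each value comes from 1 section, so the difference between days was not tested. With edgeR TMM or DESeq2 factors Cmpk2 at day 7 and Ifi44 at day 3 were below day 0.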

How the results depend on the processing

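No paired analysis was possible because there was 1 section per day. Other scalings lowered the members' ratios without turning the member sum. With edgeR TMM factors, DESeq2 factors, and the reduced total that omits mitochondrial, haemoglobin and myofibre genes, the log2 ratio of the member sum to day 0 was 1.49, 1.49 and 1.52 at day 1 (from 1.68), 1.68, 1.67 and 1.85 at day 3 (from 2.23), and 0.57, 0.54 and 0.91 at day 7 (from 1.17). The median member was then at 1.19, 1.18 and 1.36 at day 3 (from 1.74) and at 0.65, 0.62 and 0.99 at day 7 (from 1.26). The number at least 2-fold higher at day 7 was 11, 11 and 19 (from 29), and 11 were at least 3-fold higher. The shares of all genes under these settings were not counted. The summed GTPases at day 1 turned from a log2 ratio of 0.14 to -0.051, -0.051 and -0.024. Without Ifi27l2a the member sum was at 1.29 at day 1 and 1.77 at day 3.

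The share of member UMIs in the top 10% of spots was 40.05, 43.8, 38.5 and 37.9% at days 0, 1, 3 and 7 when measured on the drawn UMIs. Measured on the UMIs not drawn it was 13.7, 25.0, 33.3 and 28.7%, thinned to 4000 UMIs it was 32.1, 40.2, 37.0 and 35.1%, thinned to 1000 UMIs it was 48.2, 41.9 and 43.1% at days 0, 3 and 7, and without Ifi27l2a it was 44.3, 47.6, 42.9 and 39.8%. The GTPase ratio became 2.66 at day 3 with the reduced total and 3.11 at day 7 with the top 5% of spots. The rho with the monocyte/macrophage list was 0.367, 0.434 and 0.164 at days 1, 3 and 7 with thinning to 1000 UMIs and 0.143, 0.437, 0.662 and 0.359 at days 0, 1, 3 and 7 with 4000, and its partial value was 0.305, 0.253 and 0.191 at days 1, 3 and 7. The member level in the highest over the lowest group by macrophage RNA (4.73, 5.01 and 2.503 at days 1, 3 and 7) was 3.79, 3.49 and 2.04 with the reduced total and 5.52 and 2.92 at days 3 and 7 with 4000 UMIs. By myofibre RNA (0.185, 0.182 and 0.439) it was 0.242, 0.271 and 0.631 with the reduced total, and 0.253 at day 1 with 4000 UMIs. Of 252 values computed under alternatives for 74 results, 64 stayed within their counting error or, for counts of genes, close to the main count, 185 moved further, and 3 turned. Genes with few UMIs at day 0, such as Slfn4 with 6, have ratios known only roughly.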
